A study of Mus musculus and Homo sapiens with 22 samples.

Results

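The genes described here are the mouse kinesin genes of libraries labelled 4T1, a mouse mammary carcinoma line, sequenced after treatment with either of 2 Aurora kinase inhibitors. A gene was included when its symbol had the form Kif followed by a number, with or without a letter, and when it held 10 or more reads summed over the 12 4T1 libraries. Of 38924 gene IDs in the count tables, 40 symbols matched and 36 met the read minimum. Below the minimum were Kif1a with 2 reads, Kif2b with 0, Kif6 with 1 and Kif12 with 3. The 36 genes comprised 11 whose products act on the mitotic spindle or in cytokinesis, 12 whose products carry cargo, and 13 others with roles in microtubule dynamics, cilia or signalling. Among the others, Kif1bp encodes a kinesin-binding protein and not a motor, and Kif16bos is an RNA from the strand opposite Kif16b. Kif2a, which also acts at spindle poles, was placed among the others. A test across all genes could be applied to 31 of the 36, because Kif16bos, Kif17, Kif19a, Kif26a and Kif28, with 16 to 44 reads each over all libraries, did not pass the filter on low counts.

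Cells were plated for 24 h and then treated for 24 h with DMSO, the vehicle, with 1.25 or 2.5 µM of ENMD-2076, or with 1 or 2 µM of TAK901. Each of the 6 groups held 2 libraries: DMSO 1 and 2 with the ENMD-2076 libraries formed one naming set, and DMSO 3 and 4 with the TAK901 libraries the other. No group carried a genetic change, and the labels do not say whether libraries of a group came from separate cultures, so each p-value rests on library-to-library spread that may be technical only. The concentrations are those of the sample labels; the growth protocol gives 1 or 2 µM for ENMD-2076 and the column headers of those tables name another concentration and no compound.

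Kinesins are motor proteins that use ATP to walk along microtubules or to take them apart at their ends. The mitotic members build and slide the spindle, move chromosomes and assemble the midzone at which the cell divides, and many of their genes are transcribed mainly late in the cell cycle. The transport members carry vesicles, organelles and ciliary components in cells at any stage. Aurora A and Aurora B phosphorylate several of the mitotic motors, and Kif20a and Kif23 act together with Aurora B in the midzone. In bulk RNA, fewer cells in mitosis and less RNA of a gene per cell cannot be told apart.

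The libraries held 3746588 to 30866819 reads in genes, and the 2 µM TAK901 pair was the shallowest. The 2 naming sets stood apart before any treatment. Reads of 4 Y-linked genes summed to 0 in each of the 6 libraries of the ENMD-2076 set and to 1004 to 7021 in each library of the TAK901 set. Both sets carry the 4T1 label, and these reads leave it in doubt whether they are the same cells. Which set, if either, departs from the label was not tested, so the TAK901 values hold for the libraries so labelled. Between the DMSO pairs 67.3% of 15375 genes tested passed an adjusted p of 0.05 in either direction (edgeR quasi-likelihood test, Benjamini-Hochberg adjustment), so each compound was set against the DMSO pair of its own set. All 5 epithelial markers (Epcam, Cdh1, Krt8, Krt18, Krt19) were detected in every library, at a summed level of 2360 to 5780 CPM (read counts scaled to a common library size). Singly they differed between the sets, with 3 of the 5 called higher and 1 lower in DMSO 3 and 4 than in DMSO 1 and 2. Epcam had 350 and 355 CPM in DMSO 1 and 2 and 88 and 89 CPM in DMSO 3 and 4. Krt19 had 68.2 and 65.9 CPM and then 1000 and 841 CPM. Of 6 neuron markers Rbfox3 and Stmn2 were at 0 in every library, Snap25 and Syt1 were at 0 in the ENMD-2076 set and at most 1.91 CPM in the other, Tubb3 lay between 0.301 and 3.80 CPM, and Map2 between 16.4 and 115 CPM. The haematopoietic markers summed to at most 1.51 CPM, endothelial markers to at most 5.04 CPM, and fibroblast markers to 16.9 to 44.4 CPM, mostly Pdgfra. The reads of mitochondrial genes made up 3.92 and 4.13% of the library in DMSO 1 and 2, 6.21 and 7.09% at 1.25 µM and 8.83 and 8.72% at 2.5 µM ENMD-2076. At 2.5 µM 1 non-coding gene, Gm26917, stood at 2190 and 2000 CPM against 36.5 and 29.9 CPM. The scaling factors of that pair were 0.766 and 0.784, where the others lay between 0.989 and 1.12. The part of these features in the results at either ENMD-2076 dose was not tested.

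The start regions of the genes are given before the values, because several mitotic genes are known to be driven through 2 short promoter elements. One is the cell cycle genes homology region, searched as TTTGAA or TTTAAA, and the other is the CCAAT box, searched as CCAAT. Both were searched on both strands in the 250 bases before the RefSeq start. RefSeq start regions (GRCm38.p6) were matched for 28 of the 36 genes. The lines below show the 120 bases before the start, 5′ to 3′ on the strand of the gene, with matches on either strand in capitals. Shown are the mitotic genes, and the 2 transport genes of highest level per exon length in DMSO 1 and 2, whose stretch held no annotated exon and whose RefSeq start lay within 100 bases of the GENCODE start.
Kif11 (mitotic, chr19:37376262-37376381, plus strand): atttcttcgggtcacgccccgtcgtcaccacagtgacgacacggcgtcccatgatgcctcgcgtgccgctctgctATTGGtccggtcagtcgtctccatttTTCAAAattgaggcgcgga
Kif18b (mitotic, chr11:102925125-102925244, minus strand): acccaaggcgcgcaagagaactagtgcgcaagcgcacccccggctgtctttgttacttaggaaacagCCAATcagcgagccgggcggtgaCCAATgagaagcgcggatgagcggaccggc
Kif23 (mitotic, chr9:61946800-61946919, minus strand): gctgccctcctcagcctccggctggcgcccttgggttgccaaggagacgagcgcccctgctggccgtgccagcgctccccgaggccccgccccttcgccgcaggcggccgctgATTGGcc
Kif20b (mitotic, chr19:34922238-34922357, plus strand): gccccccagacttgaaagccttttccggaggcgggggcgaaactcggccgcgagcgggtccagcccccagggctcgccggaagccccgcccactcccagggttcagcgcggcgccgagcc
Kif1c (transport, chr11:70700428-70700547, plus strand): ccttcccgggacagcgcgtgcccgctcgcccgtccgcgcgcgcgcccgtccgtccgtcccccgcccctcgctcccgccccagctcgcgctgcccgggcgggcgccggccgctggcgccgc
Kif3c (transport, chr12:3365012-3365131, plus strand): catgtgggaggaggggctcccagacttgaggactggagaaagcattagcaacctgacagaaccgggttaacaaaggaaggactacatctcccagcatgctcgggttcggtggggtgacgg
Kif11 held both elements in these bases, Kif18b 2 CCAAT boxes, Kif23 1 CCAAT box, and Kif20b, Kif1c and Kif3c neither. Over the full 250 bases, either form of the homology region was found in 5 of 10 mitotic, 0 of 9 transport and 2 of 9 other genes, against 28.1% of 27025 genes in the table. A CCAAT box was found in 6 of 10 mitotic, 3 of 9 transport and 4 of 9 other genes, against 37.5% of all genes. Both elements were found in 3 of 10 mitotic, 0 of 9 transport and 2 of 9 other genes, against 10.1%. For Kif2c and Kif14 the RefSeq start lies inside the GENCODE gene. A match is a description of the letters and not a binding site.

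In DMSO the mitotic and the transport genes stood at overlapping levels per exon length. The highest level in DMSO 1 and 2 was that of Kif5b, the widely expressed heavy chain of conventional kinesin, at 31.3 CPM per kb of exon, followed by Kif1c, a vesicle motor, at 24.4. The next were Kif20a (22.7 CPM per kb), Kif11 (22.3) and the ciliary and vesicle motor Kif3a (20.8), while the lowest mitotic genes were Kif14 (3.98) and Kif18a (3.12). Kif5a and Kif5c, the heavy chains enriched in neurons, stood at 0.231 and 0.198 CPM per kb. DMSO 3 and 4 had the same 4 genes at the top, Kif5b at 43.3, Kif1c at 41.8, Kif20a at 38.7 and Kif11 at 27.2 CPM per kb. The 5 untested genes were at or below 0.8 CPM in every library.

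**Figure D1:**
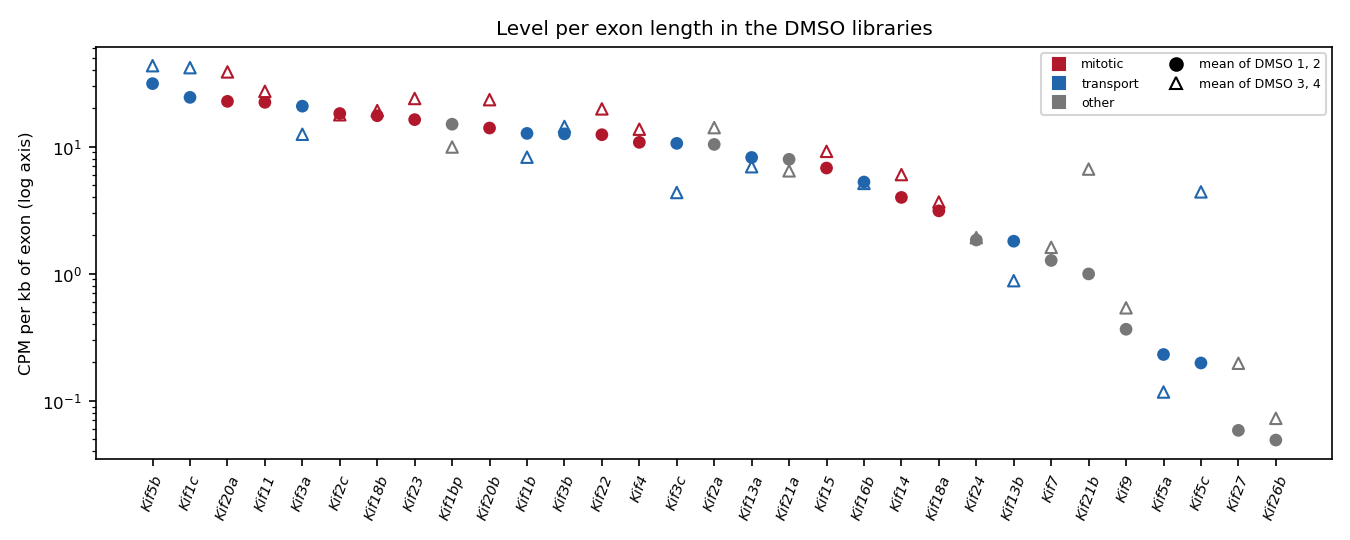
Mean level of the 31 tested kinesin genes in the DMSO libraries, in CPM per kb of exon on a log axis, ordered by DMSO 1 and 2 (filled circles, n = 2) with DMSO 3 and 4 as open triangles (n = 2); colours mark mitotic, transport and other genes. Mitotic and transport genes interleave from Kif5b (31.3) downwards, and Kif5c and Kif21b lie far apart between the DMSO pairs.

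Between the DMSO pairs 22 of 31 kinesins were called, beside 67.3% of all genes (36.6% higher and 30.6% lower in DMSO 3 and 4), and the largest differences were in 2 genes that are not mitotic. Kif5c had 1.30 and 1.53 CPM in DMSO 1 and 2 and 31.5 and 31.3 CPM in DMSO 3 and 4, a log2 difference of 4.47 ± 0.18 (SE; adjusted p = 1.83e-19, edgeR quasi-likelihood test). Kif21b, which restrains microtubule growth, had 11.5 and 12.8 CPM in DMSO 1 and 2 and 85.0 and 77.1 CPM in DMSO 3 and 4, a log2 difference of 2.74 ± 0.11 (adjusted p = 2.61e-19). In the opposite direction, Kif3c fell by 1.29 ± 0.09 and Kif13b by 1.03 ± 0.14 on the log2 scale in DMSO 3 and 4 against DMSO 1 and 2. Of the 11 mitotic genes 8 were higher in DMSO 3 and 4 and 0 lower, with a median log2 difference of 0.44 beside a median of 0.08 over all genes; Kif20a had the largest, 0.77 ± 0.07. Of 11 tested transport genes 4 were higher and 5 lower. The compounds were tested in different sets and at different doses, so their values are given side by side and not compared.

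At 1.25 µM ENMD-2076 the mitotic kinesins fell together while the transport kinesins had values near those of DMSO. Of 31 tested kinesins 20 were called, beside 45.9% of all genes. All 11 mitotic genes were lower than in DMSO 1 and 2, each by more than 2-fold, with log2 fold changes from -3.73 to -1.28 and a median of -3.16 (adjusted p from 8.49e-25 to 3.09e-08, edgeR quasi-likelihood test). Kif2a, which also acts at spindle poles but was placed among the others, had a log2 fold change of -0.31. Over all 15375 genes tested, 23.2% were called lower, 22.6% higher and 7.95% lower by more than 2-fold. The median log2 fold change of all genes was 0. Of 11 tested transport genes 3 were called higher, 0 lower (0 at an unadjusted p under 0.05 and 0 by DESeq2), and their median was 0.14. The libraries of the treated and DMSO groups did not overlap for 11 of 11 mitotic and 9 of 11 transport genes, where 65.2% of all tested genes did not overlap. In the same libraries mitochondrial genes took 6.21 and 7.09% of reads, against 3.92 and 4.13% in DMSO 1 and 2.

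**Figure D2:**
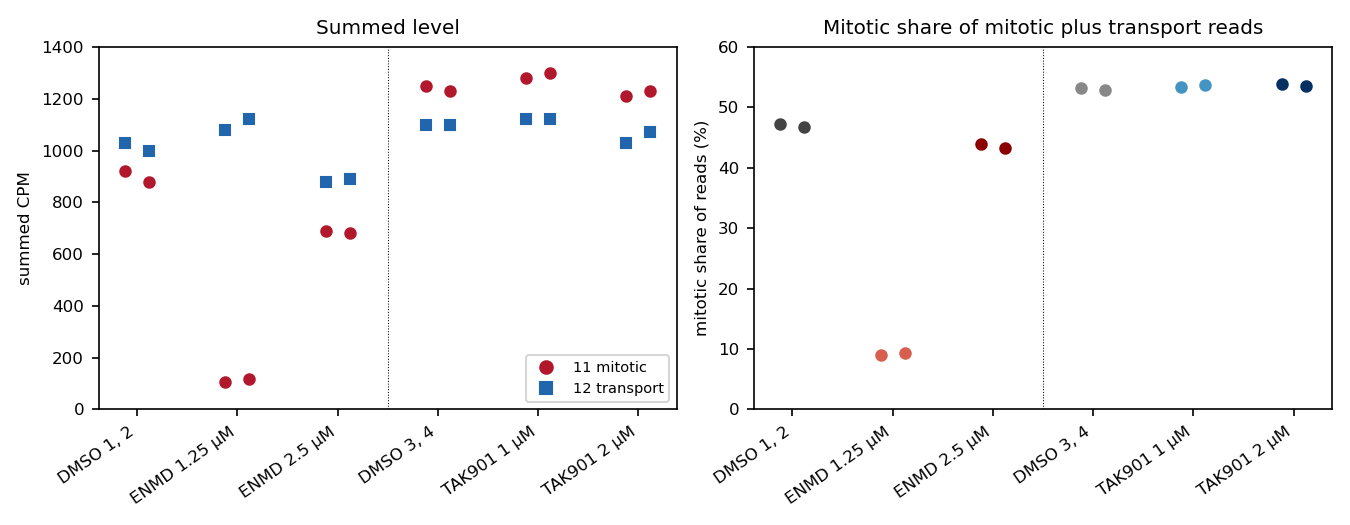
Left, summed CPM of the 11 mitotic (circles) and 12 transport (squares) kinesin genes in each of 12 libraries; right, mitotic reads as a percent of mitotic plus transport reads. The dotted line parts the naming sets. Both 1.25 µM ENMD-2076 libraries lie near 9% while the other 10 lie between 43.3 and 53.9%.

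Summed over the mitotic genes, levels were 921 and 879 CPM in DMSO 1 and 2, 106 and 117 CPM at 1.25 µM ENMD-2076, and 691 and 680 CPM at 2.5 µM. The transport genes summed to 1030 and 1000, 1080 and 1120, and 879 and 890 CPM. The mitotic share of the reads of both groups, a ratio within each library that does not depend on scaling between libraries, was 47.3% (95% exact Clopper-Pearson interval 46.8 to 47.8) and 46.7% (46.2 to 47.3) in DMSO 1 and 2. It was 8.96% (8.54 to 9.40) and 9.43% (9.14 to 9.73) at 1.25 µM, and 44.0% (43.4 to 44.6) and 43.3% (42.6 to 44.1) at 2.5 µM. In the other set it was 53.2 and 52.8% in DMSO 3 and 4, 53.4 and 53.7% at 1 µM TAK901 and 53.9 and 53.6% at 2 µM. These intervals cover counting error only. The share was thus lowest at the lower ENMD-2076 dose.

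Among the motors that shape the spindle, Kif11 (Eg5, the kinesin-5 that pushes the poles apart) had 168 and 165 CPM in DMSO 1 and 2, 19.0 and 21.6 CPM at 1.25 µM and 175 and 179 CPM at 2.5 µM ENMD-2076. It was 8.09-fold lower at 1.25 µM (log2 -3.02 ± 0.07), and at 2.5 µM its log2 fold change was 0.09 (95% interval -0.04 to 0.22). Kif15, a kinesin-12 that can stand in for Kif11, had 76.1 and 73.3, 7.56 and 4.57, and 59.0 and 51.8 CPM in the same order. In the main fit its fall at 1.25 µM was the largest of the family, 13.2-fold (log2 -3.73 ± 0.12), with Kif18b close at -3.68. Over the alternative fits Kif15 ran from -4.03 to -3.3 and Kif18b from -3.72 to -3.63, so this rank was not fixed. At 2.5 µM Kif15 fell by 0.43 ± 0.10 on the log2 scale. Kif18a and Kif18b cap microtubule plus ends, the first at kinetochores and the second on astral microtubules, and they behaved differently from each other. Kif18b went from 63.7 and 60.9 CPM to 5.02 and 4.77 at 1.25 µM and to 43.8 and 47.2 at 2.5 µM. Kif18a, at chr2:109280738-109341747, went from 32.3 and 29.0 CPM to 9.28 and 14.9 and to 14.6 and 10.1. It had the smallest fold of the mitotic genes at 1.25 µM, 2.43-fold lower (log2 -1.28 ± 0.15), and its libraries at the 2 doses overlapped.

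Motors and depolymerases of the chromosomes gave the widest range at 2.5 µM. Kif2c (MCAK, at chr4:117159639-117182639), which takes microtubules apart at centromeres, had 84.9 and 74.2 CPM in DMSO 1 and 2, 5.57 and 9.37 CPM at 1.25 µM and 18.3 and 18.6 CPM at 2.5 µM. Its log2 fold change was -3.32 ± 0.12 at 1.25 µM, and it was 4.33-fold lower at 2.5 µM (log2 -2.11 ± 0.12, adjusted p = 2.61e-16, edgeR), the largest fall of a mitotic kinesin at that dose. Kif22, a chromokinesin that pushes chromosome arms outwards, had 63.3 and 58.2, 9.83 and 8.66, and 56.0 and 64.3 CPM. Kif4, the chromokinesin that also limits the length of midzone microtubules, had 56.8 and 62.5, 5.16 and 7.57, and 37.1 and 41.8 CPM. Kif22 thus overlapped with DMSO at 2.5 µM, with a log2 fold change of -0.02 (95% interval -0.20 to 0.16), whereas Kif4 was 1.52-fold lower.

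The motors of cytokinesis also fell at 1.25 µM and were partly lower at 2.5 µM. Kif20a (MKLP2), which brings Aurora B to the midzone, had 102 and 94.7 CPM in DMSO 1 and 2, 16.6 and 12.4 CPM at 1.25 µM and 84.3 and 79.0 CPM at 2.5 µM. Kif23 (MKLP1), the motor of centralspindlin, had 131 and 127, 15.0 and 18.9, and 71.0 and 72.8 CPM, and was 1.80-fold lower than DMSO at 2.5 µM (log2 -0.84 ± 0.07, adjusted p = 8.67e-12, edgeR). Kif14, which acts with citron kinase in the last steps of division, had 44.2 and 38.2, 2.68 and 4.06, and 25.2 and 27.7 CPM. Kif20b, another motor needed for abscission, had 98.0 and 96.4, 10.5 and 10.2, and 106 and 88.0 CPM, so that its libraries at 2.5 µM lay on either side of DMSO (95% interval of the log2 fold change -0.16 to 0.17).

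**Figure D3:**
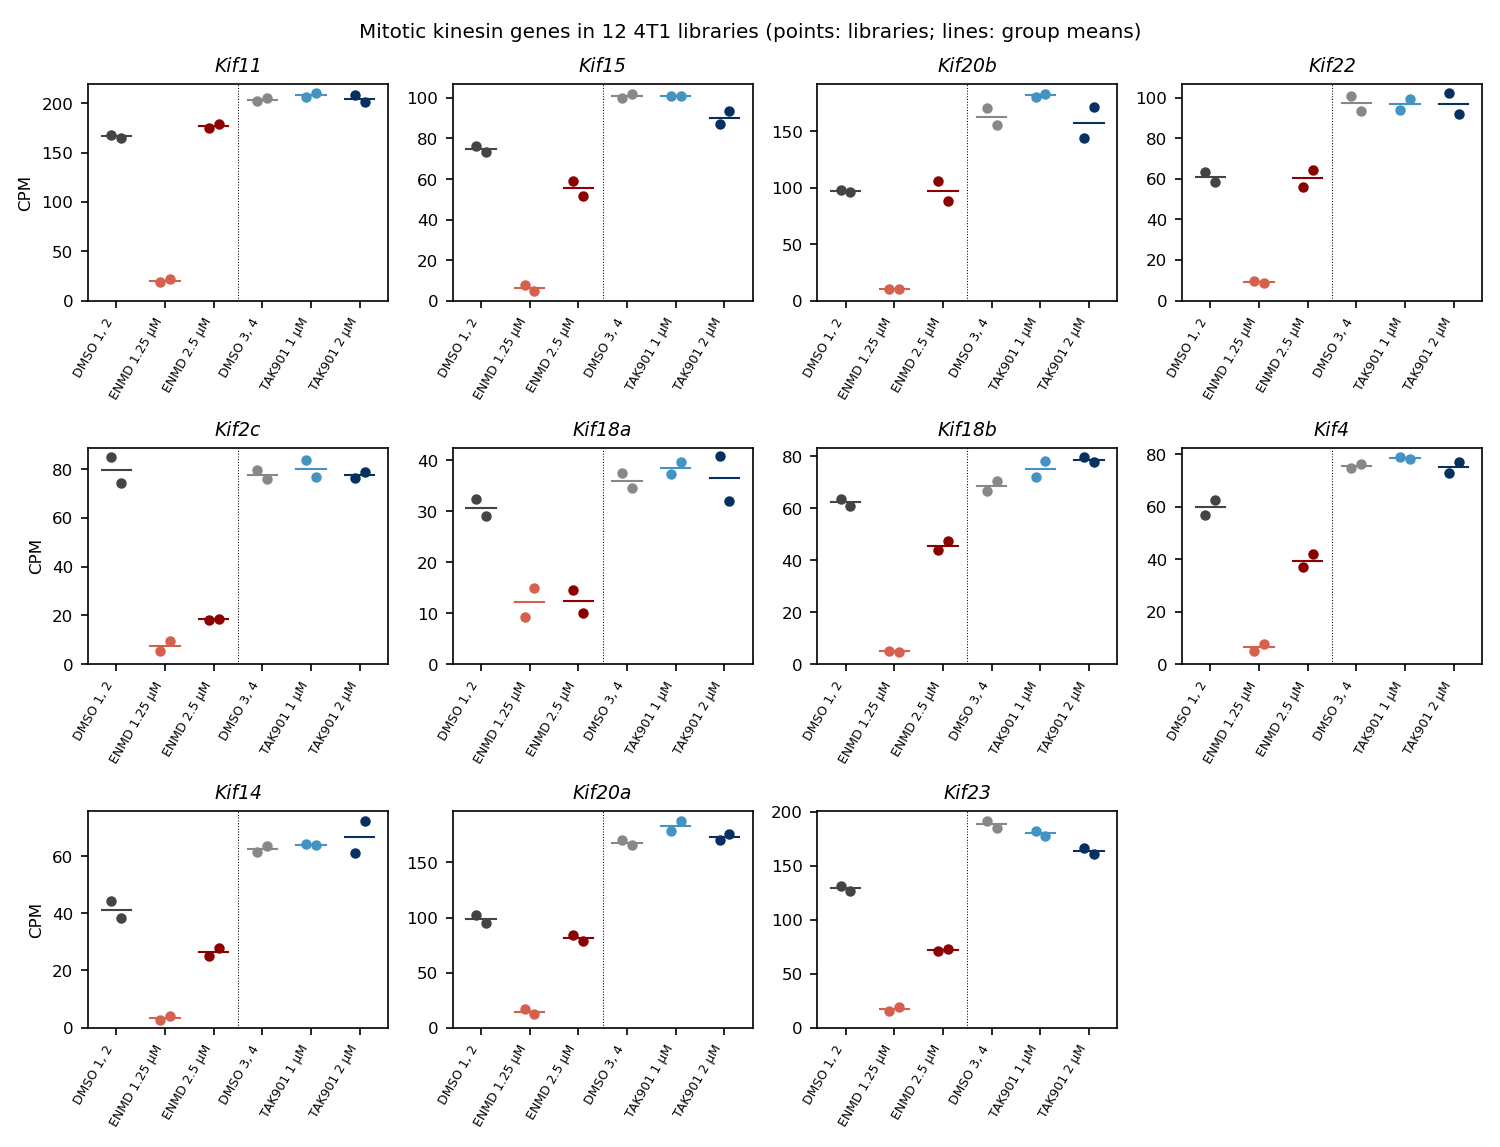
Level of the 11 mitotic kinesin genes in CPM (each axis from 0) in the 6 groups of 2 libraries; points are libraries, lines group means, and the dotted line parts the naming sets. All 11 genes are lowest or near their lowest at 1.25 µM ENMD-2076, Kif2c and Kif18a are also low at 2.5 µM, and the TAK901 points lie around those of DMSO 3 and 4.

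At 2.5 µM ENMD-2076 23 of 31 tested kinesins were called, beside 70.3% of all genes. Here 8 mitotic genes were called lower, 0 higher and 3 (Kif11, Kif20b, Kif22) neither, with a median log2 fold change of -0.46 beside -0.02 over all genes tested. At this dose 37.1% of all genes were called lower and 33.2% higher. The libraries did not overlap with DMSO for 9 of 11 mitotic and 10 of 11 transport genes, beside 79.5% of all genes. At an unadjusted p under 0.05 there were also 0 mitotic genes higher; DESeq2 called 1 higher (Kif11, log2 0.25) and 7 lower. Scaling by total counts moved the median of all genes by -0.37, and under it 11 mitotic genes were called lower, with Kif11 at -0.27, Kif20b at -0.35 and Kif22 at -0.38. Relative to that shift, Kif11, Kif20b and Kif22 stood at about the level of the median gene under both scalings. The 8 mitotic genes called lower in the main fit were called lower under both, with the largest falls in Kif2c, Kif18a and Kif23. Kif20a, at -0.27 in the main fit, was the least firm of the 8. Its call held under 8 of 12 alternatives, with log2 from -0.63 to -0.11. It was lost with DESeq2 and with RLE size factors, another scaling, each of which called 7 mitotic genes lower. Among all 31 tested kinesins the split at 2.5 µM was 4 higher and 19 lower, and 2 higher and 27 lower with total-count scaling.

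The direct comparison of the doses gave 24 of 31 kinesins called, beside 73.3% of all genes. Of the 11 mitotic genes 10 were higher at 2.5 than at 1.25 µM, each by more than 2-fold, with a median log2 difference of 2.72 and Kif15 at the top (3.30 ± 0.13). Over all genes 35.4% were called higher, 37.8% lower and 21.5% higher by more than 2-fold. Kif2c had the smallest of these 10 differences (1.21 ± 0.15). Kif18a was the gene that did not pass (log2 -0.01, 95% interval -0.36 to 0.35). Its difference was not stable, being 0.50 and called higher without the second 1.25 µM library and -0.39 and called lower with total-count scaling.

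Of 11 tested transport kinesins 3 were called at the lower dose and 9 at the higher one, where 45.9% and 70.3% of all genes were called. At 1.25 µM the 3 called higher were Kif13b, an endosome and vesicle motor (24.5 and 22.4 CPM in DMSO, 29.9 and 34.1 CPM treated, log2 0.46 ± 0.13), Kif16b, an early endosome motor (0.24 ± 0.10), and Kif5b (0.18 ± 0.06). The Kif16b call held under 6 of 13 alternatives (log2 from 0.10 to 0.35), and those of Kif13b and Kif5b under 11 each. Without DMSO 2, or without the second 1.25 µM library, 0 transport genes were called higher. At 2.5 µM, 6 of 11 tested transport genes were called lower and 3 higher, with a median of -0.81. Against 1.25 µM, 7 were lower and 1, Kif3b, higher, where 37.8% of all genes were lower and 35.4% higher. The number of transport kinesins called at 2.5 µM thus lay near the share of all genes.

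The kinesin-2 family split at 2.5 µM. Its products work as pairs of Kif3a with either Kif3b or Kif3c, and drive anterograde movement in cilia and of vesicles. Kif3a had 72.0 and 77.3 CPM in DMSO 1 and 2, 80.2 and 79.1 CPM at 1.25 µM and 22.9 and 26.7 CPM at 2.5 µM, where it was 3.02-fold lower (log2 -1.60 ± 0.09, adjusted p = 8.38e-16, edgeR). Kif3c had 78.9 and 78.7, 85.7 and 81.2, and 18.3 and 17.2 CPM, and was 4.44-fold lower (log2 -2.15 ± 0.10, adjusted p = 2.65e-18, edgeR), the largest fall of a transport kinesin. Kif3b had 70.4 and 71.1, 70.5 and 66.2, and 115 and 113 CPM, and was 1.61-fold higher (log2 0.69 ± 0.07, adjusted p = 7.82e-10, edgeR). For all 3 genes the 2.5 µM libraries lay apart from the 4 others of the set. Each kept its direction and call with total-count scaling and with RLE size factors, with Kif3b at 0.33 and 0.85.

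The other transport genes at 2.5 µM differed in size and in firmness. Kif16b had 51.1 and 44.3 CPM in DMSO 1 and 2, 51.3 and 61.0 CPM at 1.25 µM and 12.9 and 15.4 CPM at 2.5 µM, which corresponds to a log2 change of -1.77 ± 0.12. Kif13a and Kif13b fell by 0.81 ± 0.09 and 0.84 ± 0.15 on the log2 scale. Kif1c rose by a log2 of 0.19 ± 0.06 but had -0.17 and was called lower with total-count scaling, and Kif1b and Kif5b did not pass (95% intervals -0.18 to 0.11 and -0.19 to 0.06). Kif5a, at 2.05 and 1.18 CPM in DMSO 1 and 2 and 0.568 and 0.619 CPM at 2.5 µM, had a log2 fold change of -1.45 ± 0.59. That call was lost in 7 alternatives, among them DESeq2 and leaving out DMSO 1 or either 2.5 µM library, and the adjusted p (edgeR or DESeq2) ran from 0.00683 to 0.216 over the alternatives. Kif5c, with 50 reads over DMSO 1 and 2 and 61 at 2.5 µM, rose by 0.67 ± 0.28, a call lost with total-count scaling (log2 0.31), with no filter, and when DMSO 1 or either 2.5 µM library was left out (adjusted p from 0.0103 to 0.336 over the alternatives, edgeR or DESeq2). Summed neuron markers, nearly all Map2, were 54.0 and 52.3 CPM in DMSO 1 and 2, 110 and 116 at 1.25 µM and 21.3 and 21.9 at 2.5 µM, and their part in the 2 neuronal kinesins was not tested.

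**Figure D4:**
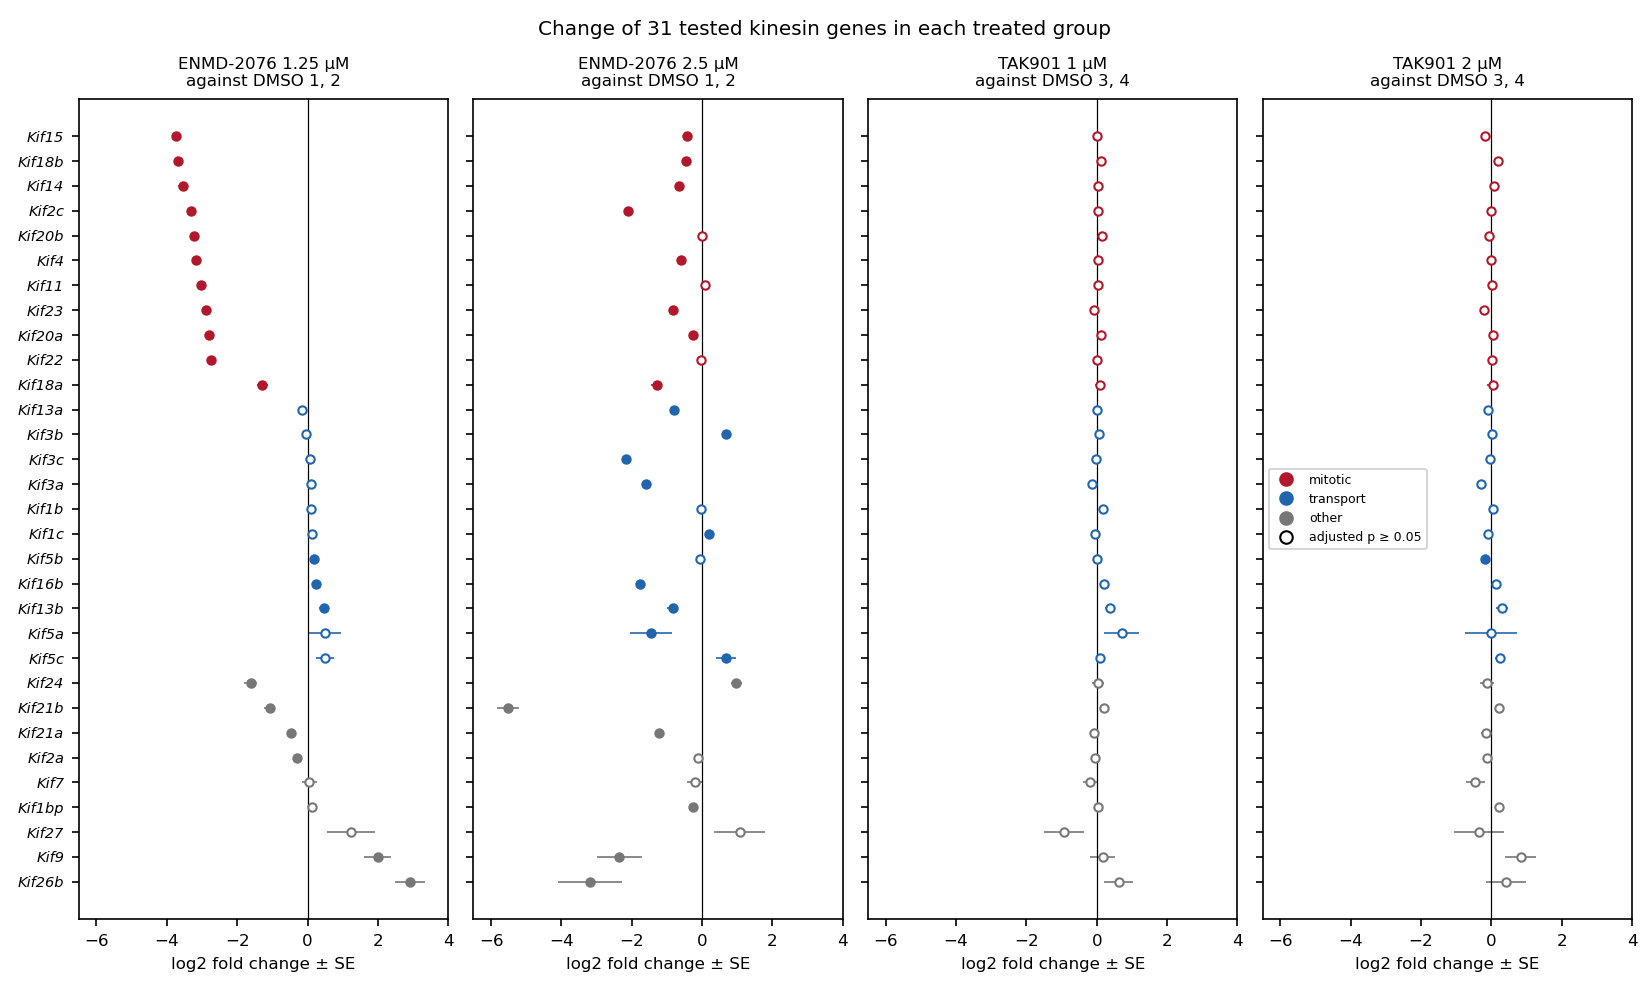
Log2 fold change ± SE of the 31 tested kinesin genes against the DMSO pair of the same set (n = 2 libraries a group), filled where the adjusted p is under 0.05 (edgeR quasi-likelihood test). At 1.25 µM ENMD-2076 the mitotic genes lie at -3.73 to -1.28 and the transport genes near 0, at 2.5 µM both spread, and with TAK901 1 point is filled.

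Among the genes listed as others, 2 of 9 tested rose and 4 fell at 1.25 µM, where 22.6% of all genes rose and 23.2% fell. The 9 include Kif2a, which also acts at spindle poles, and Kif1bp, which encodes no motor. Kif26b, a kinesin-like protein of Wnt and Ror signalling that is not known as a motor, had 1.03 and 0.413 CPM in DMSO 1 and 2, 5.57 and 5.48 CPM at 1.25 µM and 0.0631 and 0.0885 CPM at 2.5 µM. It rose 7.51-fold at 1.25 µM (log2 2.91 ± 0.43, adjusted p = 1.48e-06, edgeR). The 2.5 µM libraries held 1 read each, and against the 26 reads of DMSO 1 and 2 that is a ratio of 0.101 (95% counting interval 0.0116 to 0.401). The call of Kif26b at 2.5 µM was lost without DMSO 1 (log2 -2.39, adjusted p = 0.0629, edgeR). Kif9, found in motile cilia, had 1.19 and 1.94, 5.91 and 6.44, and 0 and 0.708 CPM; it rose 3.97-fold at 1.25 µM (log2 1.99 ± 0.38), and its 0 and 8 reads at 2.5 µM gave a ratio of 0.190 to DMSO (0.0782 to 0.401). Without the 2.5 µM library at 0 the log2 fold change of Kif9 was -1.11 and the call was lost (adjusted p = 0.0908, edgeR). Both genes had their highest values at the lower dose and their lowest at the higher one, the latter from at most 8 reads a library.

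Kif24, a centriolar kinesin that holds back cilium formation, took the reverse course. It had 17.7 and 11.8 CPM in DMSO 1 and 2, 5.98 and 4.06 CPM at 1.25 µM (log2 -1.62 ± 0.19) and 28.4 and 29.5 CPM at 2.5 µM (log2 0.97 ± 0.16), and the 3 groups did not overlap. Kif21b and Kif21a fell at both doses. Kif21b, at chr1:136131389-136177998, had 11.5 and 12.8, 6.39 and 5.35, and 0.442 and 0 CPM. Its 7 and 0 reads at 2.5 µM, against 429 in DMSO 1 and 2, gave a 46.9-fold lower level (95% counting interval 22.6 to 117), the largest fall of the family. The log2 fold change of Kif21b was -5.52 ± 0.32 from both libraries and -4.72 without the one at 0; without the other, 0 reads remain and the size of the fall is not fixed. Kif21a had 45.5 and 57.4, 34.1 and 39.7, and 24.9 and 18.6 CPM. Kif2a, which takes microtubules apart at spindle poles and in neurons, fell by a log2 of 0.31 ± 0.08 at 1.25 µM and did not pass at 2.5 µM (95% interval -0.30 to 0.06). Kif7, which is tied to Hedgehog signalling, and Kif27 passed at neither dose.

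**Figure D5:**
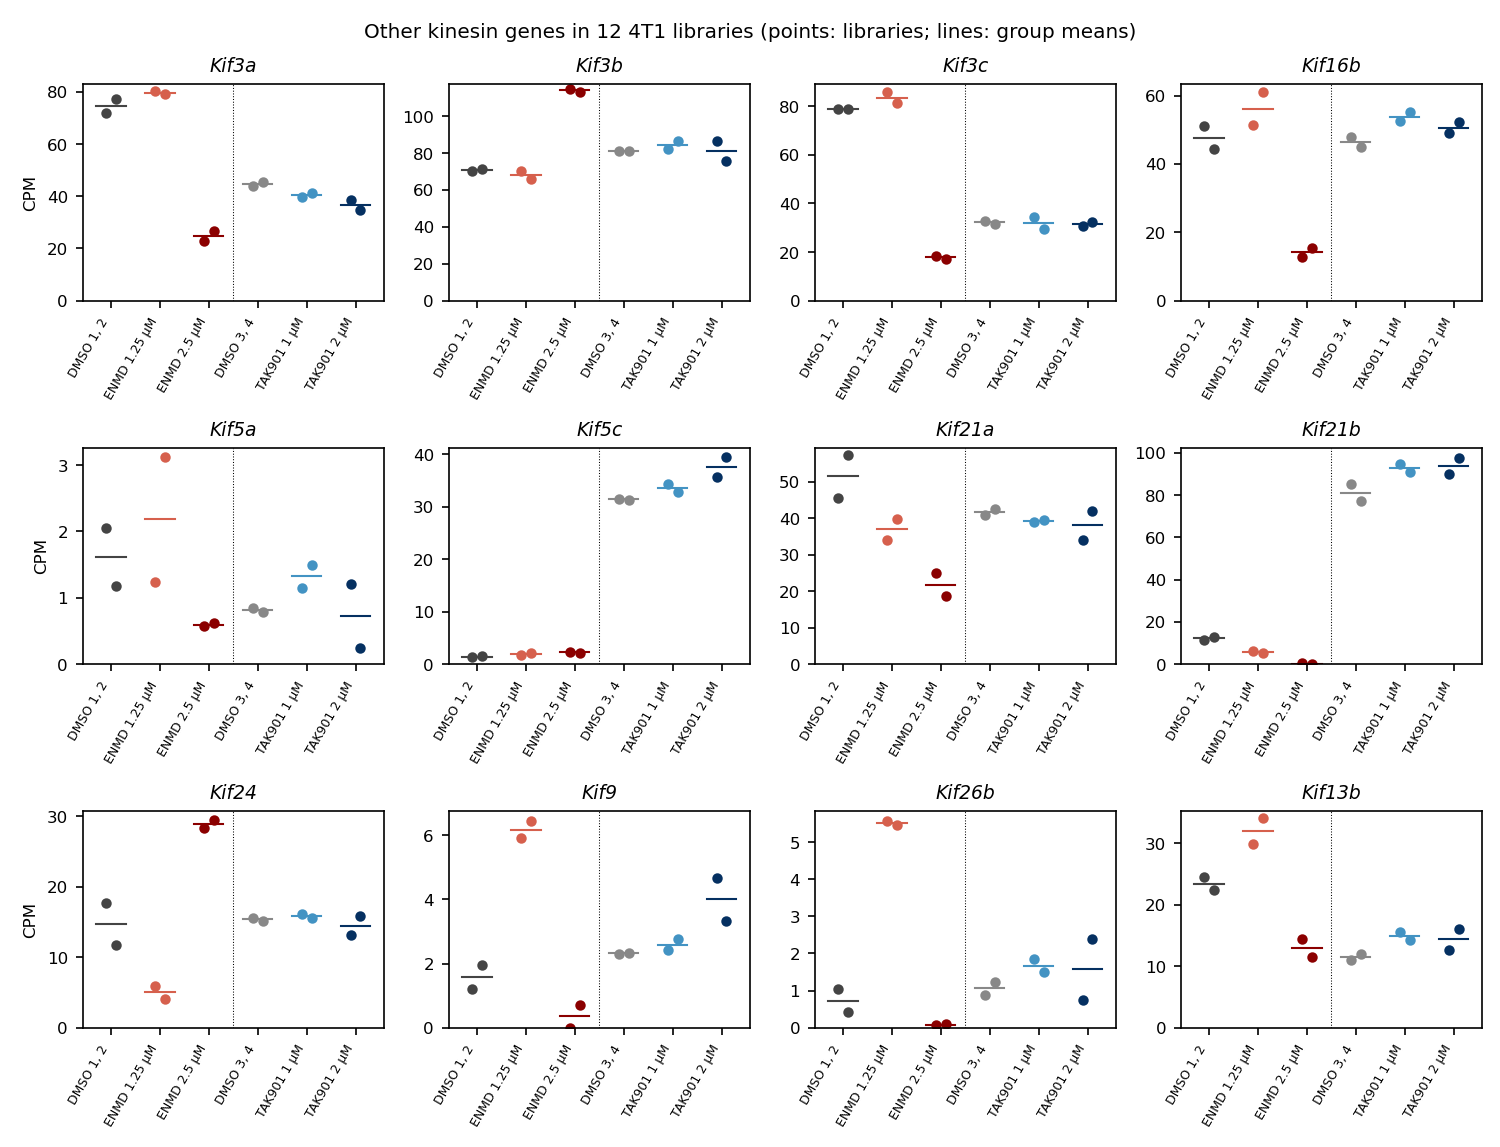
Level in CPM (each axis from 0) of 12 kinesin genes outside the mitotic group in the 6 groups of 2 libraries; points are libraries and lines group means. Kif3a, Kif3c and Kif16b are low and Kif3b and Kif24 high at 2.5 µM ENMD-2076, Kif9 and Kif26b are high at 1.25 µM, and Kif5c and Kif21b differ between the sets.

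With TAK901, levels of the mitotic kinesins stayed within a small distance of DMSO 3 and 4. At 1 µM, 0 of 31 kinesins were called in either direction by edgeR and 0 by DESeq2, 5 had an unadjusted p under 0.05, and 9.14% of all genes were called. The 11 mitotic log2 fold changes lay between -0.07 and 0.16, and their 95% intervals between -0.21 and 0.38. At 2 µM 1 of 31, Kif5b, was called, where 14.9% of all genes were. Kif5b had 341 and 350 CPM in DMSO 3 and 4, 343 and 349 CPM at 1 µM and 306 and 303 CPM at 2 µM (log2 -0.18 ± 0.06, adjusted p = 0.0414, edgeR). That call held under 2 of 12 alternatives, whose adjusted p ran from 0.0115 to 0.230, and it was lost when any 1 library of DMSO 3 and 4 or of the 2 µM pair was left out.

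The mitotic log2 fold changes at 2 µM TAK901 lay between -0.20 and 0.20, with 95% intervals between -0.37 and 0.38. The lowest was that of Kif23, with 192 and 185 CPM in DMSO 3 and 4, 182 and 178 CPM at 1 µM and 167 and 161 CPM at 2 µM, which did not pass (adjusted p = 0.0644, edgeR). Kif23 was called lower in 2 of 12 alternatives, with no filter and with the TAK901 set alone, and its adjusted p (edgeR or DESeq2) ran from 0.0299 to 0.304. The highest was that of Kif18b, 0.20, with 66.6 and 70.4, 71.9 and 78.0, and 79.6 and 77.8 CPM (adjusted p = 0.129, edgeR). With total-count scaling Kif18b was the 1 kinesin called at this dose (log2 0.26), where Kif5b was not. The adjusted p of Kif18b (edgeR or DESeq2) adjusted p ran from 0.0231 to 0.490 over the alternatives. Kif11 had 202 and 205, 206 and 210, and 208 and 201 CPM. Kif2c had 79.5 and 75.8, 83.9 and 76.6, and 76.3 and 79.0 CPM. Between the TAK901 doses 0 of 31 kinesins were called by edgeR and 0 by DESeq2, 2 had an unadjusted p under 0.05, and 0.0715% of all genes were called. Fits with smaller sets of libraries called more: with the TAK901 set alone, 3 at 1 µM (Kif13b, Kif16b and Kif21b, all higher) and 8 at 2 µM, where 21 and 23.3% of all genes were called. With the 2 groups compared alone there were 6 at 1 µM, the same 3 and Kif1b, Kif20a and Kif20b, all higher, and 4 at 2 µM, where 25.7 and 22.5% of all genes were called. Kif5c stayed above 31 CPM and Kif21b above 77 CPM in all 6 libraries of this set.

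Kinesins named outside the Kif pattern were read as a comparison list, and the counts of this and the following lists stand beside 23.2% of all genes lower and 22.6% higher at 1.25 µM ENMD-2076, 37.1% lower and 33.2% higher at 2.5 µM, and 9.14 and 14.9% called at 1 and 2 µM TAK901. At 1.25 µM ENMD-2076, 4 of 5 were lower and 1 higher. Cenpe, the kinetochore motor that aligns chromosomes, had a log2 fold change of -3.42 ± 0.08, Kifc1, a minus-end motor that gathers spindle poles, -3.19 ± 0.10, and Kifc3, a minus-end motor of cell junctions, 1.43 ± 0.07. At 2.5 µM 4 of 5 were lower and 0 higher by edgeR (0 also at an unadjusted p under 0.05, 1 with RLE size factors), with Cenpe at -2.37 ± 0.08 and Kifc3 at -1.30 ± 0.08. Kifc1 has a near-identical copy, Kifc5b, so reads of the pair could have been split. With 1 µM TAK901 Cenpe was higher (log2 0.32 ± 0.07) and the other 4 were not called, and at 2 µM 0 of 5 were called by edgeR (1 at an unadjusted p under 0.05), and 1 was higher with total-count scaling and with RLE size factors.

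Partners of the mitotic kinesins were nearly all lower at the lower dose. Of 18 listed genes 17 were lower and 1 higher at 1.25 µM ENMD-2076, with a median log2 fold change of -3.05. Aurkb, the gene of Aurora B, had -4.06 ± 0.12 and Ndc80, which holds microtubules at kinetochores, -3.83 ± 0.11, while Numa1, which anchors spindle poles, had 0.33 ± 0.06. At 2.5 µM 13 were lower and 3 higher, with a median of -0.61; Ndc80 had -1.68 ± 0.09, and Racgap1, the centralspindlin partner of Kif23, 0.33 ± 0.06. With total-count scaling 15 were lower and 0 higher at 2.5 µM. With TAK901 0 of 18 were called at 1 µM by edgeR (2 higher and 2 lower at an unadjusted p under 0.05) and 1, the cytokinesis regulator Ect2, at 2 µM (log2 -0.20 ± 0.06), a call lost with total-count scaling and with RLE size factors.

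Most of 18 listed transcription factors of the cell cycle fell at 1.25 µM ENMD-2076, 14 lower and 1 higher. At 2.5 µM the count was 9 higher and 5 lower, or 9 and 7 with total-count scaling and 11 and 4 with RLE size factors. E2f8, a repressor of E2F targets, had a log2 fold change of -3.91 ± 0.12 and Foxm1, an activator of late cell cycle genes, -3.28 ± 0.09 at 1.25 µM. At 2.5 µM E2f7 had 2.71 ± 0.10 and Lin9, a subunit of the MuvB complex, 1.90 ± 0.09, while E2f5 had -2.80 ± 0.15 and Rb1 -1.99 ± 0.16. At 1 µM TAK901 1 was higher and 4 lower. At 2 µM 6 were lower and 0 higher by edgeR (10 lower and 2 higher at an unadjusted p under 0.05), and 4 lower and 1 higher with either other scaling. Mybl2, the B-Myb partner of MuvB, had log2 fold changes of -0.55 ± 0.11 and -0.87 ± 0.12.

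The tracks and the other motors gave mixed counts. Of 12 tested tubulin genes 7 fell and 3 rose at 1.25 µM ENMD-2076. At 2.5 µM 6 fell and 4 rose, or 8 and 2 with total-count scaling and 4 and 5 with RLE size factors. Tuba1b, an alpha-tubulin gene, had log2 fold changes of -1.28 ± 0.06 and 1.14 ± 0.06. With 2 µM TAK901 5 were lower and 1 higher, with Tuba1b at -0.47 ± 0.06. Of 22 tested genes of cytoplasmic dynein and dynactin, the motor that walks towards minus ends, 11 rose and 6 fell at 1.25 µM. At 2.5 µM 7 rose and 10 fell, or 5 and 15 with total-count scaling and 10 and 9 with RLE size factors, with the heavy chain Dync1h1 at -1.57 ± 0.06.

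Cargo adaptors and ciliary transport genes had more members lower than higher at the higher dose. Of 17 tested cargo subunits and adaptors, 4 fell and 3 rose at 1.25 µM. At 2.5 µM 12 fell and 2 rose, with the light chains Klc3 at -2.98 ± 0.20 and Klc4 at -2.56 ± 0.17 and the mitochondrial adaptor Trak2 at 0.69 ± 0.07. Of 16 genes of intraflagellar transport, the cargo trains that kinesin-2 moves in cilia, 7 rose and 2 fell at 1.25 µM. At 2.5 µM 12 fell and 0 rose by edgeR (0 also at an unadjusted p under 0.05), with a median log2 fold change of -0.86, while RLE size factors gave 11 and 1. Ift81 had the largest fall there, a log2 fold change of -3.36 ± 0.14, and Ift52 the smallest called, -0.36 ± 0.12.

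Reads in exons shared with a neighbour could be credited to either gene or left out as ambiguous. Which of these held is not known, since the counting strand is not given in the sources used here. Exons of 14 of the 36 genes overlap those of another gene. The largest overlap is 2617 bases between Kif3c and 1110002L01Rik. It is 1271 bases between Kif20a and Cdc23, 1229 between Kif2a and Dimt1, and 909 between Kif26b and Gm16564. It is 877 bases between Kif7 and 9330171B17Rik, 832 between Kif4 and Pdzd11, and 11 between Kif18a and Mettl15. All of these lie on opposite strands. Kif11, Kif14, Kif15, Kif18b, Kif20b, Kif23 and Kif2c have no exonic overlap, and each was lower at 1.25 µM ENMD-2076.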

How the data were processed

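RNA of the 12 4T1 libraries was analysed; the 10 MDA-MB-231 libraries were not used here. The authors deposited raw read counts per gene. FastQC 0.11.3, Bowtie, TopHat, HTSeq, DESeq2 and mm10 are named per the submitters' processing notes; the sources used here do not give their roles, the annotation or the strand setting. The 5 HTSeq summary lines of set 2 tables were removed. IDs were matched to symbols ignoring versions, and 37607 of 38924 matched. Coordinates, exon lengths and overlaps came from the mouse GENCODE release M21 (GRCm38).

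One edgeR 4.0.16 quasi-likelihood fit (R 4.3.3) covered all 12 libraries with 6 group means, filterByExpr and TMM scaling. The two-sided p-values had a Benjamini-Hochberg adjustment across 15375 genes, with a threshold of 0.05; SE is the log2 fold change over the root of F. CPM used TMM-scaled library sizes. At a count of 0, 3 reads (0.0972 to 0.801 CPM) remain possible. Counting intervals for genes with few reads came from reads summed over a group. Scripts were tested on simulated data. Same-group libraries differed by more than sampling noise (chi-square per degree of freedom 2.48 to 7.63).

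Mitotic genes and any other kinesin past the threshold by over 2-fold in a treatment could be named with values per library, and from each other list at most 4 genes, those with the lowest and highest fold changes past the threshold. Kif3b, Kif5b, Kif5c and Kif13b, given per library outside that rule, were chosen after their values were seen. Members and lists were chosen with earlier results of these data known. Alternatives were DESeq2 1.42.0, other scalings, no filter, a replicate block, fits on fewer libraries and leaving out single libraries; the counts of the comparison lists under other scalings were added after seeing the data.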

Additional observations from a re-analysis of the deposited data

How the results depend on the processing

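Of 2631 values of single kinesins recomputed under the alternatives, 2503 kept their direction and their side of the threshold, or stayed uncalled, 70 lost a call, 53 gained one and 5 turned; where a result changed, the cause was not tested beyond the scaling and sample numbers named. With total-count scaling, which shifts the median of all genes by -0.37 at 2.5 µM ENMD-2076 against DMSO, Kif11 had -0.27, Kif1c -0.17 and Kif20b -0.35, and 1 transport kinesin was called higher. Against 1.25 µM the shift was -0.38, Kif1c had -0.33, and 1 mitotic kinesin, Kif18a, was called lower. In that comparison Kif18a ranged from -0.30 to 0.50 over left-out libraries, and 1 to 2 transport kinesins were called higher, as were 2 with DESeq2 or RLE size factors. At 2.5 µM against DMSO, 1 mitotic kinesin was called higher with DESeq2, RLE size factors, the ENMD-2076 set alone, the 2 groups alone, or without both 2 µM TAK901 libraries; over left-out libraries 1 to 3 transport kinesins were called higher, and at 1.25 µM 0 to 3. Kinesins called at 1 µM TAK901 numbered 3 with its set alone and 6 with the 2 groups alone. At 2 µM TAK901 they numbered 0 with DESeq2, RLE size factors, the replicate block, without both 2.5 µM ENMD-2076 libraries or without any single library, 2 with no filter, 8 with its set alone and 4 with the 2 groups alone. Leaving out single libraries left 16 to 20 kinesins called at 1.25 µM ENMD-2076, 19 to 22 at 2.5 µM, 24 to 26 between its doses and 0 at 1 µM TAK901; a lone remaining library was assumed to vary like the other groups. Same-numbered libraries did not deviate together (correlations of -0.0129, 0.0196 and -0.011 in the ENMD-2076 set and 0.0221 between TAK901 doses). That does not show whether same-numbered libraries were handled together, and DMSO 3 and 4 share no number with the TAK901 libraries. With the replicate block 19 kinesins were called at 1.25 µM, 23 at 2.5 µM, 25 between the ENMD-2076 doses and 0 at 1 µM TAK901. Depth limits Kif9, Kif21b and Kif26b at 2.5 µM ENMD-2076, with 0 to 8 reads a library, and the 2 µM TAK901 pair.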
